A study of Rattus norvegicus with 36 samples.

Results

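T lymphocyte genes were followed through injured and uninjured sensory ganglia of the rat, 9 of the 10969 genes that the array annotation names: Cd3e, Cd8b, Lck, Cd7, Ctla4, Il2rb, Il2rg, Cxcr3 and Gzmb. Every probe set, the group of short probes that reports one transcript on an Affymetrix array, was taken if the platform annotation named one of these symbols and no other gene. That gave 19 of the 26202 probe sets on the 3 RG_U34 chip types A, B and C. One more probe set, on chip A, named Gzmb together with another gene and was left out.

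The tissue was the dorsal root ganglion, which holds the cell bodies of sensory neurons beside the spinal cord. Its total RNA was measured in 6 pools of ganglia. L5 pools held the L5 ganglia of rats with spinal nerve ligation of L5, a model of neuropathic pain, at 28 and at 50 days after injury. L4 pools held the neighbouring L4 ganglia of rats with the same ligation, at the same days, so their own spinal nerve had not been tied. Sham pools combined the L4 with the L5 ganglia of sham-operated rats at the same days, so any normal difference between the ganglia enters the comparisons of L5 with sham and of L5 with L4. The labels of some pools name 30 rats as their source, and strain, sex and age are not given in the sources used here. Each pool was hybridised to 2 technical arrays of each chip type, 36 arrays in all. The pools of 28 and 50 days served as the 2 samples of a condition. Nothing in the labels says that pools came from separate experiments. The p-values measure only the spread that these 6 pools leave after condition and day are fitted, moderated over probe sets. A difference between conditions that changes with the day enters that spread.

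T lymphocytes recognise antigen through a receptor whose signal passes through the CD3 chains, of which Cd3e encodes one. The kinase Lck, held at the coreceptors CD4 and CD8, starts that signal, and interleukin receptors and chemokine receptors then steer the growth and the migration of the cells. In rodents T cells enter sensory ganglia and nerves after nerve injury, alongside macrophages. In bulk RNA, fewer cells of a type and less RNA per cell cannot be told apart.

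None of the 9 genes passed the test between conditions or between days, with p-values adjusted over all probe sets. Granzyme B (Gzmb) had all its L5 arrays above all its L4 and sham arrays, and Cd3e, Lck and Il2rg had their highest arrays in L5 ganglia at 50 days. Of all tested probe sets, 4.06% had all L5 arrays above all sham arrays and 5.22% had them above all L4 arrays. In 12.7% both 50-day L5 arrays lay above all other arrays. The separations in the named genes were found after the values had been seen. Whether they held depended on how the arrays were scaled, as given beside each. For 4 of the genes (Ctla4, Il2rb, Il2rg and Cxcr3) the 2 arrays of a pool differed more than they did for most probe sets.

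Exactly 1 probe set of each gene was bright enough to be tested, which left 10 probe sets too dim to judge. The limit was the 40th percentile of the mean signal of a chip type, at 39.3, 53.6 and 58.8 signal units on A, B and C. Just above it lay Ctla4 on chip A, with a mean signal of 43.2, and Cd7 on chip B, with 63.6. Just below it lay a Gzmb probe set on chip A with a mean of 36.0 and another on chip B with 47.0. No detection calls were used, so a dim probe set is not called absent.

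The region before the start of a gene holds sites for the transcription factors that switch it on. It is shown here for the 3 genes whose 50-day L5 arrays lay above all their other arrays. The sequences are RefSeq's for build GRCr8 and cover the 250 bases before each start, 5′ to 3′ on the strand of the gene, which is the minus strand in all 4 windows. Capitals mark AGGAAG, or CTTCCT where it was read from the other strand, a core of the sites bound by the ETS family of factors that includes regulators of lymphocyte genes. The Cd3e window is chr8:54211771-54212020, the Lck windows, for 2 annotated starts, are chr5:147201268-147201517 and chr5:147183651-147183900, and the Il2rg window is chrX:70439001-70439250. The second Lck window and part of the Il2rg window lie within the annotated genes, whose highest coordinates are 147201267 and 70439052.
Cd3e: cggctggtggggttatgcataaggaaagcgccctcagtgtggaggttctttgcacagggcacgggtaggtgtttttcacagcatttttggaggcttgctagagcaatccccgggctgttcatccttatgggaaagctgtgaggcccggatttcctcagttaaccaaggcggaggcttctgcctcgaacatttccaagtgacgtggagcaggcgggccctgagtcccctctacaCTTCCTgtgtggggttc
Lck, first window: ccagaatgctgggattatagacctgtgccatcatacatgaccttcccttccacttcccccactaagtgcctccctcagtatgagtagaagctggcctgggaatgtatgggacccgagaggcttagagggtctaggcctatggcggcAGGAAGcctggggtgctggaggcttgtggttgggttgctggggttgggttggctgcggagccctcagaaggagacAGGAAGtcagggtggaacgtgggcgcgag
Lck, second window: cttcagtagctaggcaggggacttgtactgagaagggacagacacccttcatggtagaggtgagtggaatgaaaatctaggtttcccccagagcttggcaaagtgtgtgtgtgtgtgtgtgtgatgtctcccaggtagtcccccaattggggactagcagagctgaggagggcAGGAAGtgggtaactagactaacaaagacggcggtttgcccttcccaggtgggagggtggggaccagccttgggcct
Il2rg: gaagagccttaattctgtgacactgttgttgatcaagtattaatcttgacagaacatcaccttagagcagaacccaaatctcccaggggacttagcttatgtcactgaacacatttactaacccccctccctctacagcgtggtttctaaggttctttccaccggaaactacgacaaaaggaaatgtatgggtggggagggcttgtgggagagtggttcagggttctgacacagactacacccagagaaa

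The Cd3e window held the letters once, 17 bases before the start. The first Lck window held them at 104 and at 29 bases before its start, the second held them at 77 bases, and the Il2rg window did not hold them. Other sequences that ETS factors may bind were not searched for in any window. Of the 9 genes, 6 had a window in the table, 7 windows in all, and 5 of these windows held the letters on either strand. Among all 33469 windows of that length 29.5% held them, so a match is common and is given as a description.

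Array medians give the setting for the values that follow. All arrays had been brought to one trimmed mean, yet the median signal was highest in the 50-day L5 pool on every chip type, at 69.1, 86.1 and 91.7 on A, B and C. In the other pools it ran over 51.7 to 59.6, 71.2 to 76.8 and 80.2 to 86.8. Across tested probe sets, r between the arrays of one pool was 0.88 to 0.958. Of 16 general neuronal markers on the arrays, all 16 passed the filter.

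Cd3e (probe set rc_AI178182_at, chip C), the epsilon chain of the CD3 complex, had a signal of 99.3 and 206 on the 2 arrays of L5 ganglia at 28 days and of 256 and 309 at 50 days. L4 ganglia gave 109 and 116 at 28 days and 124 and 122 at 50 days, against 123 and 98.8 in sham at 28 days and 158 and 151 in sham at 50 days. Both 50-day L5 arrays were above the other 10 arrays. The 28-day L5 arrays lay far apart, one at the level of L4 and sham and one above them. Below them the pools followed in the order sham at 50 days, L5 at 28 days, L4 at 50 days, L4 at 28 days and sham at 28 days. Only the L4 pools among these neighbours had arrays that did not overlap. The fitted difference of L5 minus sham was 0.56 ± 0.24 on the log2 scale (SE, n = 2 pools each, 95% interval 0.04 to 1.08, 1.47-fold, adjusted p = 0.262). L5 minus L4 was 0.69 ± 0.24 (interval 0.18 to 1.21, 1.62-fold, adjusted p = 0.155). It was 1.00 when the 28-day L5 pool was left out. That fit leaves L5 with 1 pool, assumed to vary as the L4 and sham pools do, so its calls are not read. With arrays scaled to the hybridisation controls the same difference was -0.02, against a median of -0.64 over all probe sets.

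Cd8b (probe set X04310_at, chip A), the beta chain of the CD8 coreceptor of cytotoxic T cells, had a signal of 58.6 and 112 in L5 at 28 days and of 108 and 122 at 50 days. L4 ganglia gave 58.9 and 70.3 at 28 days and 80.1 and 81.1 at 50 days, against 66.2 and 69.8 in sham at 28 days and 81.1 and 69.5 at 50 days. As with Cd3e, one of the 28-day L5 arrays was low and the other high, and the other 3 L5 arrays lay above every L4 and sham array. The L5 minus sham difference was 0.38 ± 0.29 (interval -0.25 to 1.01, adjusted p = 0.525) and L5 minus L4 was 0.37 (adjusted p = 0.497). Over the 6 pools Cd8b and Cd3e, which lie on different chip types, correlated at r = 0.94, a description of pools that share their RNA between chips.

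Lck (probe set rc_AA800684_at, chip A), the kinase that starts signalling at the T cell receptor, had a signal of 131 and 141 in L5 at 28 days and of 235 and 185 at 50 days. L4 ganglia gave 93.3 and 90.4 at 28 days and 132 and 161 at 50 days, against 140.3 and 162 in sham at 28 days and 109 and 159 at 50 days. The 50-day L5 arrays were the highest of the 12 and the 28-day L4 arrays the lowest, while the 28-day L5 arrays lay among those of sham. Fitted over both days, L5 minus sham was 0.24 ± 0.26 (interval -0.34 to 0.81, adjusted p = 0.672) and differed in sign between the days, at -0.14 at 28 days and 0.62 at 50 days. L5 minus L4 was 0.49 (adjusted p = 0.325), and nearly the same at both days.

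Cd7 (probe set rc_AA848922_at, chip B), a surface glycoprotein of T and NK cells, had a signal of 72.7 and 68.5 in L5 at 28 days and of 32.5 and 39.8 at 50 days. L4 ganglia gave 42.1 and 45.8 at 28 days and 44.7 and 94.4 at 50 days, against 50.5 and 17.6 in sham at 28 days and 122 and 132.5 at 50 days. L5 was above L4 and sham on both arrays at 28 days and below them on both arrays at 50 days. L5 minus sham was 0.85 at 28 days and -1.43 at 50 days, so the fitted difference of -0.29 ± 0.46 (adjusted p = 0.777) averages opposite signs.

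Ctla4 (probe set U37121_at, chip A), an inhibitory receptor that competes with Cd28 for its ligands, had a signal of 48.3 and 16.3 in L5 at 28 days and of 39.0 and 41.1 at 50 days. L4 ganglia gave 70.0 and 61.9 at 28 days and 80.4 and 20.1 at 50 days, against 20.7 and 18.9 in sham at 28 days and 19.2 and 82.6 at 50 days. In 3 of the 6 pools one array was more than double the other on the log2(signal + pseudocount) scale, and the conditions overlapped at 50 days. The fit gave 0.15 ± 0.44 for L5 minus sham (adjusted p = 0.882) and -0.48 for L5 minus L4 (adjusted p = 0.568).

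The interleukin-2 receptor chains followed. Il2rb (probe set M55050_at, chip A), the beta chain shared by the receptors for interleukin-2 and interleukin-15, had a signal of 103 and 65.2 in L5 at 28 days and of 169.8 and 28.2 at 50 days. L4 ganglia gave 9.8 and 53.1 at 28 days and 41.0 and 114 at 50 days, against 35.1 and 10.8 in sham at 28 days and 105 and 43.0 at 50 days. At 28 days both L5 arrays were above all L4 and sham arrays of that day, and at 50 days the arrays of each pool lay so far apart that the conditions overlapped. L5 minus sham was 0.80 ± 0.41 (interval -0.10 to 1.69, 1.74-fold, adjusted p = 0.355). Leaving out the 28-day L5 pool gave 0.14, and leaving out the 50-day L5 pool gave 1.45, so the value rested on single pools.

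Il2rg (probe set rc_AI178808_at, chip C), the common gamma chain used by several interleukin receptors, had a signal of 57.6 and 28.4 in L5 at 28 days and of 209 and 172 at 50 days. L4 ganglia gave 76.6 and 35.9 at 28 days and 102 and 127 at 50 days, against 107 and 29.7 in sham at 28 days and 119 and 119.8 at 50 days. Its highest pool was L5 at 50 days and its lowest pool was L5 at 28 days. L5 minus sham was 0.11 ± 0.30 (adjusted p = 0.88) and L5 minus L4 was 0.19 (adjusted p = 0.761), each with a negative value at 28 days and a positive value at 50 days.

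Cxcr3 (probe set rc_AI234161_at, chip C), the receptor for the interferon-induced chemokines Cxcl9 and Cxcl10, had a signal of 25.0 and 113 in L5 at 28 days and of 237 and 38.5 at 50 days. L4 ganglia gave 54.9 and 123 at 28 days and 86.9 and 50.7 at 50 days, against 132.5 and 48.4 in sham at 28 days and 151.5 and 80.2 at 50 days. The median gap between the 2 arrays of a pool was larger than the whole range of the 6 pool means. The fit gave -0.25 ± 0.30 for L5 minus sham (adjusted p = 0.696) and 0.04 for L5 minus L4 (adjusted p = 0.958).

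Gzmb (probe set M34097_at, chip A), the serine protease that cytotoxic T cells and NK cells release from their granules, had a signal of 136 and 149 in L5 at 28 days and of 121 on both arrays at 50 days. L4 ganglia gave 58.9 and 87.1 at 28 days and 70.8 and 117 at 50 days, against 87.1 and 80.4 in sham at 28 days and 98.7 and 92.3 at 50 days. All 4 L5 arrays were above all 8 others, at 50 days by a small margin over L4. L5 minus sham was 0.50 ± 0.27 (interval -0.10 to 1.09, 1.41-fold, adjusted p = 0.383) and L5 minus L4 was 0.62 ± 0.27 (interval 0.02 to 1.21, 1.53-fold, adjusted p = 0.243). The order of the arrays against sham held with quantile normalization, and it did not hold with median centring or with scaling to the hybridisation controls. Against L4 it held under none of those 3.

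**Figure D1:**
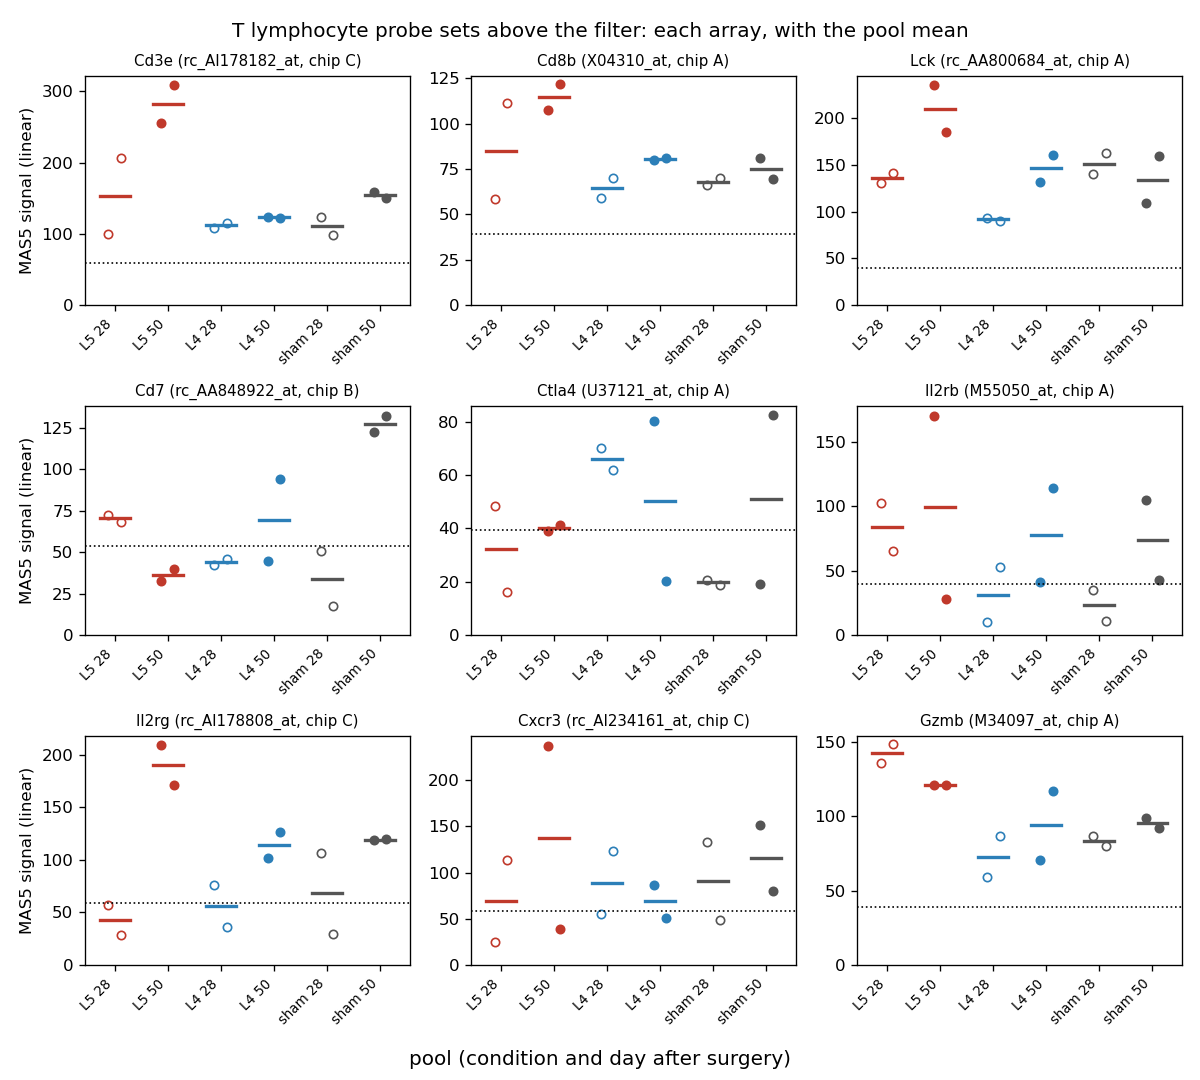
MAS5 signal (linear, each panel with its own axis) of the tested probe set of each gene, by pool (condition and day). Points are single arrays, open at 28 days and filled at 50 days, bars are pool means and dotted lines the filter limit. Gzmb lies at 121 to 149 in L5 ganglia, above its L4 and sham arrays, and Cd3e, Lck and Il2rg are highest in L5 at 50 days, orders that another scaling of the arrays can undo.

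The 3 further Gzmb probe sets were too dim to test, and their values are given for the same pools. The one on chip B with the suffix s_at gave 91.2 and 102 in L5 at 28 days and 71.9 and 31.0 at 50 days, against 43.1 and 27.5 in sham at 28 days and 27.0 and 36.1 at 50 days. The one on chip A gave 99.7 and 51.4 in L5 at 28 days and 91.5 and 17.3 at 50 days, against 5.9 and 40.8 in sham at 28 days and 34.1 and 45.3 at 50 days. The other one on chip B gave 54.5 and 40.4 in L5 at 28 days and 17.4 and 15.1 at 50 days, against 2.2 and 6.8 in sham at 28 days and 2.3 and 8.7 at 50 days. In L4 ganglia these 3 ran over 19.3 to 53.5, 9.3 to 15.7 and 1.1 to 10.9. At such levels the values are a description and are not set beside the tested probe set as support. The 2 arrays of a pool differed by up to 1.79 on the log2 scale in the probe set on chip A. On chip A the probe set's suffix f_at marks probes that can also match related sequences, and Gzmb has close relatives among the granzymes, so its signal may be shared.

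**Figure D2:**
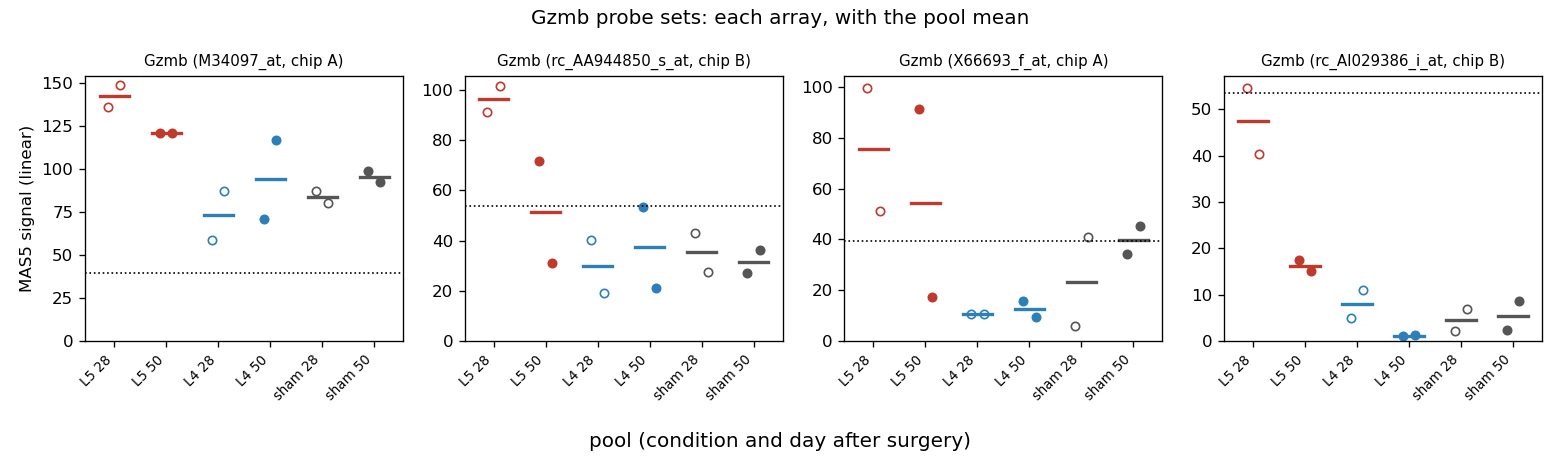
MAS5 signal (linear, each panel with its own axis) of the 4 Gzmb probe sets by pool. Points are single arrays, open at 28 days and filled at 50 days, bars are pool means and dotted lines the filter limit. The left panel is the tested probe set and the other 3 have means under the limit and are too dim to judge.

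The remaining 7 dim probe sets had means between 6.5 and 29.0 signal units. They comprise 3 of Cd3e, 2 of Il2rg, 1 of Ctla4 and 1 of Cxcr3. By mean linear signal 5 of them were highest in L5 at 50 days and 2 in sham at 28 days. None (0) was highest in L5 at 28 days, where the 3 dim Gzmb probe sets were. Nothing is read from the order of pools in probe sets this dim.

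Across the 9 tested probe sets, none was called in L5 against sham (0 of 9), where 0.763% of all 15721 probe sets were called by limma at an adjusted p under 0.05. None was called in L5 against L4, where 1.27% of all were, or in L4 against sham, where 0.0% of all were. At an unadjusted p under 0.05 the counts were 1 of 9 in L5 against sham, 2 of 9 in L5 against L4 and 0 of 9 in L4 against sham, beside 16.9%, 19.4% and 2.72% of all probe sets. The fitted L5 minus sham difference was above 0 in 7 of 9 genes with a median of 0.24, beside 53.7% of all probe sets with a median of 0.04. L5 minus L4 was also above 0 in 7 of 9, with a median of 0.37 beside 0.04 for all. L4 minus sham was above 0 in 3 of 9, with a median of -0.12 beside -0.00 for all, and its adjusted p was 1.00 for every member. These comparisons share pools: L5 enters 2 of them, and so do L4 and sham. Without the 50-day L5 pool, too, no member was called in any of the 3 comparisons of conditions.

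**Figure D3:**
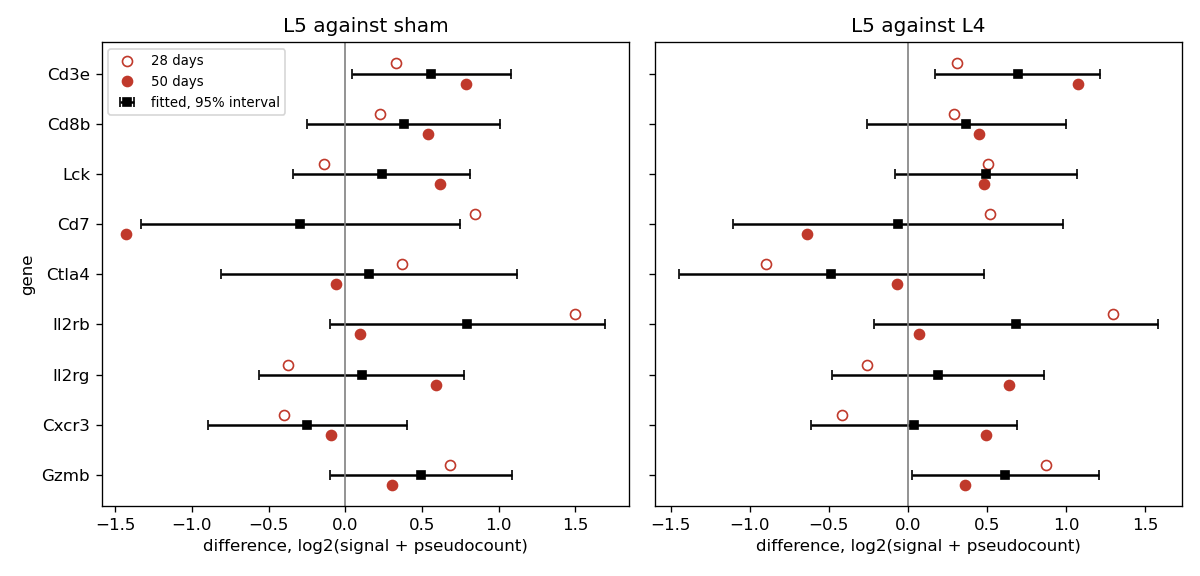
Differences of L5 minus sham (left) and L5 minus L4 (right) for the 9 genes, on the log2(signal + pseudocount) axis. Squares are fitted values with their 95% interval over 2 pools a condition, open circles the 28-day and filled circles the 50-day difference. The intervals of Cd3e lie above 0 in both panels and that of Gzmb in the right one, though no adjusted p passed, and the days stand on opposite sides of 0 in both panels for Cd7 and Il2rg and in one panel for Lck, Ctla4 and Cxcr3.

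Counted by arrays, all 4 L5 arrays were above all 4 sham arrays in 1 of 9 members (Gzmb), beside 4.06% of all tested probe sets. All 4 L5 arrays were above all 4 L4 arrays in 1 of 9 (again Gzmb), beside 5.22% of all. Both 50-day L5 arrays were above all 10 other arrays in 3 of 9 (Cd3e, Lck and Il2rg), beside 12.7% of all. That pattern, too, depended on scaling. It held for the same 3 genes with quantile normalization, for Cd3e and Il2rg with median centring, and for none with scaling to the hybridisation controls, where 0.668% of all probe sets had it. By mean linear signal the highest pool was L5 at 50 days in 6 members and in 30.3% of all tested probe sets, and L5 at 28 days in 1 member and in 21.8% of all. By mean log2(signal + pseudocount) it was L5 at 50 days in 4 members, because Il2rb then had its highest pool in L5 at 28 days and Cxcr3 in sham at 50 days.

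**Figure D4:**
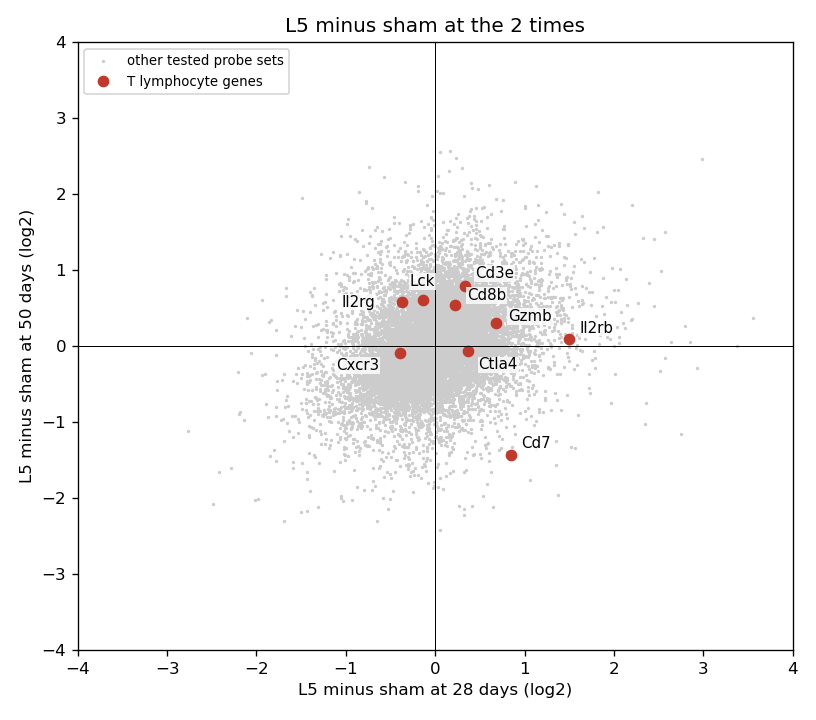
L5 minus sham at 28 days (horizontal axis, log2) against the same difference at 50 days (vertical axis, log2). Grey points are the other tested probe sets and red points the 9 genes. Cd7 lies at 0.85 and -1.43, Cd3e at 0.33 and 0.79, and Il2rb far to the right at 0.09 on the vertical axis. The axes share no pool.

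Time after surgery was compared over the 3 conditions together, with 3 pools a day. All 9 members had a fitted value of 50 minus 28 days above 0, beside 54.1% of all probe sets, with a median of 0.33 beside 0.04. None was called (0 of 9), where 0.286% of all probe sets were, and 3 of 9 had an unadjusted p under 0.05, beside 18.7% of all. Il2rg had the largest value, 1.15 ± 0.25 (SE, n = 3 pools each, interval 0.60 to 1.69, 2.21-fold, adjusted p = 0.101), and it was higher at 50 days in all 3 conditions, by 1.77 in L5, 0.87 in L4 and 0.81 in sham. Il2rg passed the threshold at 1.12 (adjusted p = 0.0115) with scaling to the hybridisation controls and at 1.15 (adjusted p = 0.0294) when all 12 arrays entered with the pool as a random block. With the array number as a replicate block besides, it was also 1.15 (adjusted p = 0.0267). It did not pass at 0.67 with array 1 of each pool alone (adjusted p = 0.392), at 1.62 with array 2 alone (adjusted p = 0.134), or at 0.84 without the 28-day L5 pool (adjusted p = 0.183) or the 50-day L5 pool (adjusted p = 0.253). Il2rb came next at 0.75 ± 0.34 (adjusted p = 0.26), and Cd3e at 0.47 ± 0.19 (adjusted p = 0.231). Other markers also differed by day. The red cell gene Hbb fell by 2.05 (adjusted p = 0.000361) and the neutrophil gene S100a9 fell by 2.03 (adjusted p = 0.00924), both named after their values were seen, and the 13 macrophage genes had a median of -0.54 with none called. Their part in the day values of the T lymphocyte genes was not tested. For Cd7 the days moved apart by condition, with 50 minus 28 days at -0.72 in L5, 0.44 in L4 and 1.56 in sham.

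The gap between the 2 arrays of a pool varied widely between genes. The median gap between them over the 6 pools was 0.11 for Gzmb, 0.15 for Cd7, 0.17 for Cd3e, 0.18 for Cd8b and 0.23 for Lck on the log2 scale, beside 0.24 over all tested probe sets. It was 0.47 for Il2rg, 0.61 for Ctla4, 1.05 for Cxcr3 and 1.16 for Il2rb. Of all tested probe sets, 87.1%, 93.6%, 99.2% and 99.6% had a smaller gap than these 4. All 4 lay between the 40th and 60th percentile of mean signal on their chip type, where the median gap was larger, at 0.345. Gaps reached 2.16 for Il2rb and 2.13 for Cxcr3, both in the 50-day L5 pool, which is larger than any fitted difference of those genes. For Cd3e the largest gap, 0.92, was in the 28-day L5 pool.

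**Figure D5:**
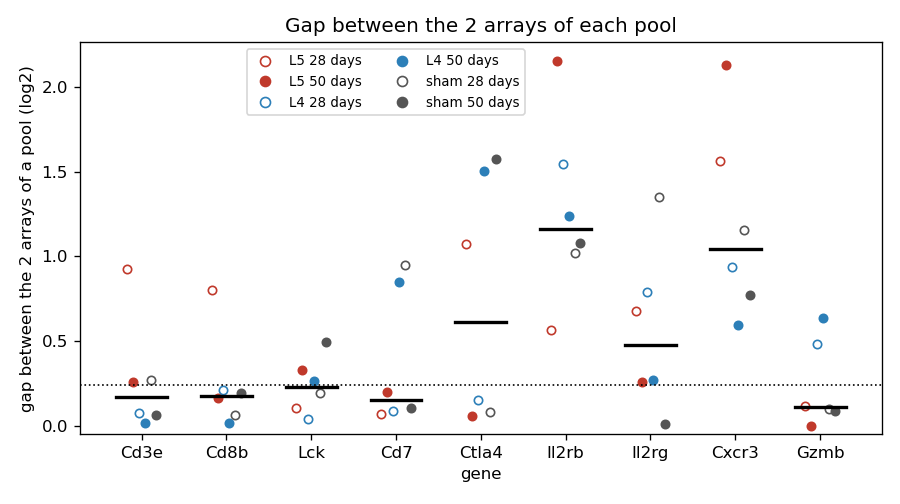
Absolute gap between the 2 technical arrays of a pool, in log2 units, for the tested probe set of each gene. Points are the 6 pools, open at 28 days and filled at 50 days, bars are medians over pools, and the dotted line is the median gap of all tested probe sets (0.24). Il2rb and Cxcr3 lie far above that line and Gzmb below it.

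Other genes of the same pathways were counted with 1 probe set a gene. Among 20 genes of the T cell receptor complex and coreceptors, 14 were on the arrays and 7 were bright enough to test. None was called in L5 against sham, 6 of 7 were above 0, and the median was 0.39. Cd4, the helper T cell coreceptor that rat macrophages also carry, had 1.12 ± 0.39 (adjusted p = 0.181) and Cd3g, the gamma chain of CD3, had 0.57 ± 0.48 (adjusted p = 0.565). Thy1, which sensory neurons also make, was the one below 0, at -0.36. Cd3d, Cd247, Cd2, Cd5, Cd6, Cd8a and Cd28, which also mark T cells, were not among the tested genes. Among 22 genes of T cell signalling and transcription, 7 were tested and none was called, with 4 of 7 above 0 and a median of 0.27. By day that median was 0.155 at 28 days and -0.421 at 50 days, against 0.174 and 0.581 for the receptor list. The adaptor Lcp2 had 0.71 and the actin regulator Coro1a had -0.64.

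Receptors, cytokines and targets around the members gave the same count of calls. Among 21 genes of common gamma chain cytokines and their signalling, 9 were tested, 4 were above 0, and the median was -0.00. Il4r, a partner of Il2rg in the interleukin-4 receptor, had 0.94 ± 0.33 (adjusted p = 0.189) and the kinase Jak1 had -0.50. Among 17 Cxcr3 ligands and interferon response genes, 11 were tested and 10 were above 0, with a median of 0.34. The interferon-induced GTPase Mx2 had 1.42 ± 0.34 (adjusted p = 0.0977) and the transcription factor Irf7 had 1.26 (adjusted p = 0.202), both larger at 28 days (2.27 and 2.19) than at 50 days (0.57 and 0.34). The ligands themselves, which were named after their values were seen, had 0.10 for Cxcl9 and 0.45 for Cxcl10. None of these 20 tested genes was called.

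Costimulation genes and cytotoxic granule genes were mostly too dim, with 2 tested of 12 and 2 tested of 18. Tnfrsf9, a costimulatory receptor induced on activated T cells, had 0.63 (adjusted p = 0.212) and Cd86, a ligand of Ctla4, had 0.34 (adjusted p = 0.653). Ltb, a lymphotoxin chain, had 0.29 and the granule proteoglycan Srgn had -0.00. No gene of either list was called.

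Markers of other cells that could carry the same transcripts were set beside these values. Of 13 NK cell genes 12 were on the arrays and 3 were tested, none was called, and their summed signal was 167 and 221 in L5 at 28 and 50 days, against 136 and 142 in L4 and 133.5 and 112 in sham. The NK receptor Ncr1 had 1.36 ± 0.47 (adjusted p = 0.181), Klrb1a had 0.54 and Klrc1 had -0.01, so 2 of 3 were above 0. At 50 days L4 minus sham was 1.56 for Ncr1, 0.87 for Klrb1a and -1.55 for Klrc1. Of 15 B cell and plasma cell genes 2 were tested, Fcer2 at 0.72 and Cd22 at -0.01, with sums of 238 and 308 in L5, against 190.2 and 243 in L4 and 171 and 231.5 in sham. Of 19 macrophage genes 13 were tested, all 13 were above 0 with none called, and the median was 0.61. Their sum was 6525 in L5 at 28 days and 2281 at 50 days, against 2272 and 1854 in L4 and 2376 and 2090.0 in sham, with C1qb at 1.54 and Ctss at 1.00. The macrophage sum stood highest in L5 at 28 days, as did the sums of muscle, blood cell (8645), interferon response (2393) and T cell signalling genes (1138). Mean linear signal was highest in that pool for Gzmb and for 21.8% of all tested probe sets. For Cd3e, Cd8b, Lck, Il2rb, Il2rg and Cxcr3, and for 30.3% of all, it was highest in L5 at 50 days. By mean log2(signal + pseudocount) Il2rb was instead highest in L5 at 28 days and Cxcr3 in sham at 50 days. Skeletal muscle genes, 10 tested of 12, were all above 0 with a median of 1.03 and 1 called, Tpm2, which rose by 1.16 ± 0.21 (adjusted p = 0.0465). Acta1 had 1.32 and Tnnc2 had 1.28, the largest of that list. Muscle sums were 3677 and 2160 in L5 at 28 and 50 days, against 1622 and 1931 in L4 and 912 and 1921 in sham. Neuronal genes, 16 tested of 16, had a median of -0.28 with 2 that fell, the sodium channels Scn11a (-1.38 ± 0.19, adjusted p = 0.0152) and Scn10a (-1.34 ± 0.22, adjusted p = 0.024). Lists of blood cells (6 tested), mast cells (2 tested) and glia (9 tested) had medians of 0.19, 0.42 and 0.22 with none called between conditions. Their largest differences were S100a8 at 0.64 and Slc4a1 at 0.40, Tpsab1 at 0.45 and Tpsb2 at 0.39, and Fabp7 at -0.87 and Mag at 0.63. The part of these cell types in the values of the T lymphocyte genes was not tested.

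The genes of chip C whose pool means tracked Cd3e most closely were Faim, an inhibitor of Fas-mediated cell death, with r = 0.992 over the 6 pools, Gtpbp6 with 0.988, and Slc23a4 and Ube2j2 with 0.987 each. Faim had mean signals of 141 and 244 in L5 at 28 and 50 days, against 114 and 119 in L4 and 121 and 155 in sham. Of 3845 named probe sets compared, 155 reached r over 0.9, all over the same 6 pools. Among the members, Cd8b and Lck correlated at r = 0.85, Cd3e and Lck at 0.75, Cd3e and Il2rg at 0.74, and Il2rb and Gzmb at 0.78. Cd7 tracked none of the others above 0.57.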

How the data were processed

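RNA of 6 pools was measured on 36 arrays. Values were deposited as linear intensity, computed with MAS5 per the submitters' processing notes. Which MAS5 version was used is not given in the labels. The deposited intensities had been scaled: without the top and bottom 2%, every array averaged 150.07 to 150.21.

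Each chip type's arrays were brought to a single trimmed mean and put on a log2(signal + pseudocount) scale. As pseudocount served the 20th percentile of the chip type's signals (12.8, 17.7 and 20.2 on A, B and C), which understates changes at low signal. After dropping control probe sets and means under the 40th percentile, 15721 probe sets were tested. Arrays of a pool share RNA and were averaged. The 6 pools were fitted in limma 3.58.1 (R 4.3.3) with condition and day as terms, 2 residual degrees of freedom and eBayes with a trend on intensity. Benjamini-Hochberg adjustment ran over the 3 chip types, with a threshold of 0.05. Single days have 1 pool a condition, which allows no test. The code was tested on simulated data.

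The platform annotation gave 1 gene for 7006, 5351 and 5821 probe sets (A, B, C), several, left unnamed, for 308, 38 and 45, and no gene for 1426, 3343 and 2864. The 9 symbols were checked in a RefSeq table of GRCr8. Of each pathway or cell type list, the 2 genes with the largest difference of L5 from sham and any gene called between conditions are named, each by its brightest tested probe set. For Cd3e the 4 named genes of highest Pearson r on its chip are given. The members and lists were chosen with earlier results of these data known. Alternatives were other scalings, pseudocounts and filters, no trend, single arrays, all 12 arrays with the pool as a block, and each pool left out. The array numbers do not pair samples: deviations of same-numbered arrays correlated at -0.102 to 0.108 over the pairs of pools. The number of pools, more than that of arrays, limits the precision. One sham array of chip B has a title of 28 days and a description of 50 days; the title was used.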

Additional observations from a re-analysis of the deposited data

Results flagged for a closer look

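Cd7 is a result to look at again. Its L5 arrays were above all sham and L4 arrays of the same day at 28 days and below all of them at 50 days. L5 minus sham at 50 days minus the same difference at 28 days was -2.28 on the log2 scale, and for L5 minus L4 it was -1.16. With 1 pool per condition and day this difference was not tested. From 28 to 50 days the sham pools changed more (1.56) than the L5 pools (-0.72), and L4 changed by 0.44. The share of all tested probe sets with such an order of arrays was not counted. In 2 pools the arrays themselves lay far apart, with gaps of 0.95 in sham at 28 days and 0.85 in L4 at 50 days.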

How the results depend on the processing

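None of the 9 genes was called in L5 against sham or in L4 against sham under any alternative. In L5 against L4 the call of Cd3e changed only without the 28-day L5 pool, where its difference was 1.00. That fit leaves L5 with 1 pool, assumed to vary as the others do, so its calls are not read. For the days, 1 (Il2rg) was called with scaling to the hybridisation controls, with all 12 arrays and the pool as a random block, and with a replicate block added. Under the filter at the 60th percentile 3 of the 9 were tested, and without a filter all 19 probe sets.

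Counts over all probe sets moved with many of the alternatives. The count of called members started at 0 and had little room to move, so it does not measure how stable the members were. Probe sets called in L5 against sham (120) numbered 41 with quantile normalization, 413 with median centring, 2906 with scaling to the hybridisation controls, 31 with no filter, 3 with no intensity trend, 0 with array 1 alone, 2 with array 2 alone, 1114 with the pool as a random block and 977 with a replicate block besides. They split into 36 higher and 84 lower, against 17 and 24 with quantile normalization, 44 and 369 with median centring and 33 and 2873 with the hybridisation controls. In L5 against L4 (199) the same alternatives gave 53, 680, 6711, 19, 0, 0, 0, 1388 and 1186, splitting into 41 higher and 158 lower at first, 55 and 625 with median centring and 21 and 6690 with the controls. For the days (45) they gave 15, 90, 290, 23, 0, 2, 5, 1031 and 796, with 16 higher and 29 lower at first and 13 and 77 with median centring. L4 against sham (0) had 427 probe sets at an unadjusted p under 0.05, and gave 6 with the controls and 1 with the random block. Leaving out 1 pool gave 12 to 621 in L5 against sham, lowest without the 28-day sham pool, 98 to 784 in L5 against L4, lowest without the 28-day L4 pool, 0 to 11 in L4 against sham and 69 to 422 for the days. Scaling to the hybridisation controls moved the median of all probe sets to -0.43 in L5 against sham, 0.20 in L4 against sham, -0.64 in L5 against L4 and -0.02 for the days.

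Several differences changed sign. In L5 against sham, Ctla4 was -0.003 with quantile normalization, -0.04 with median centring, -0.21 with the controls and -0.47 with array 2 alone, Cxcr3 was 0.093 with array 2 alone, and with the controls Cd8b was -0.064, Lck -0.23 and Il2rg -0.30, all above the median of all probe sets there. In L5 against L4, Cxcr3 was -0.04 with quantile normalization, -0.074 with median centring, -0.58 with the controls and -0.19 with array 2 alone, Cd7 was 0.14 with array 1 alone and Il2rb -0.69 with array 2 alone. With the controls Cd3e was -0.017, Cd8b -0.20, Lck -0.11 and Il2rg -0.44. For the days, Gzmb was -0.024 with quantile normalization and -0.048 with median centring, Ctla4 -0.044 with array 1 alone and Cxcr3 -0.55 with array 2 alone. Leaving out 1 pool gave, in L5 against sham, -0.15 to 0.62 for Lck, -1.15 to 0.57 for Cd7, -0.27 to 0.58 for Ctla4, -0.36 to 0.57 for Il2rg and -0.55 to 0.058 for Cxcr3. In L5 against L4 it gave -0.92 to 0.80 for Cd7, -1.01 to 0.042 for Ctla4, -0.28 to 0.66 for Il2rg and -0.34 to 0.42 for Cxcr3. For the days it gave -0.14 to 1.00 for Cd7, -0.09 to 0.54 for Ctla4 and -0.023 to 0.23 for Gzmb. Cd3e, Il2rb and Gzmb kept a positive sign in L5 against sham under all alternatives, with 0.26 to 0.86, 0.14 to 1.45 and 0.27 to 0.72 when 1 pool was left out, and with 0.11, 0.36 and 0.036 when arrays were scaled to the controls. Cd3e was 0.18 with array 1 alone. The cause of these changes was not tested.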
